A study of Mus musculus with 18 samples.

Results

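The elastase-induced abdominal aortic aneurysm was compared with the normal aorta of untreated mice, using 11 of the 18 arrays in the series: 6 aneurysms (PPE) and 5 normal aortas, chosen by their sample labels. PPE stands for porcine pancreatic elastase, which is instilled into the infrarenal aorta to break down elastic fibres, so that the vessel dilates over the following weeks. The remaining 7 arrays are aneurysms of mice given lenvatinib and entered only the estimate of the spread. All mice were male, aneurysms were induced at an age of 10 weeks, and the aneurysms were taken on day 28. The normal aortas are listed with an age of 10 weeks and without a day of harvest. Age at harvest may therefore differ between the groups. The labels describe the aneurysm mice as ApoE-/-, deficient in apolipoprotein E, from Charles River Laboratories, whereas the methods describe wild-type C57BL/6J mice for the elastase model; the strain is therefore not settled, and whether PPE mice received the vehicle of the drug by gavage was not stated. Apoe, the gene for apolipoprotein E, had a mean log2 signal of 11.51 ± 0.71 in the normal aortas and 12.52 ± 0.25 in PPE (SD) and rose by 1.01 ± 0.24 (adjusted p = 0.0255). This does not check the labels, because the probes of a cluster can lie outside a deleted segment. The normal aortas are labelled as untreated and no sham operation is named for them, so the effects of surgery, of perfusion and of elastase cannot be told apart. Whether the normal aortas came from mice of the same strain was not settled either. The part of strain or age in the differences below was not tested. RNA came from pieces of tissue about 1 mm long with integrity numbers between 5.7 and 9.8 and each sample had 1 array, so each value mixes smooth muscle, endothelium, adventitia and any infiltrating cells. In such bulk samples fewer cells of a type and less RNA per cell cannot be told apart, and p-values measure the spread between these arrays.

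The wall of the normal abdominal aorta is built mainly from smooth muscle cells between elastic lamellae. Contractile smooth muscle cells express a set of myosin, actin and actin-binding proteins under control of serum response factor and its partner myocardin, and they sense stretch through dystrophin and integrin adhesions to laminin. In aneurysms, macrophages and lymphocytes enter the wall, proteases degrade elastin and collagen, and smooth muscle cells can lose contractile proteins or die. The question addressed here is which transcripts separate the dilated wall on day 28 from the normal wall, and how much the individual aneurysms resemble each other.

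Each array gave log2 signals of transcript clusters, the array's unit for a gene or a transcribed region. Per-array values were available for 11121 clusters, which all had passed an overall F test of the 3 groups by the authors, and group averages with standard deviations for the others. Of 65956 clusters, 293 stood at the highest possible value of 19.93 in every group, among them that of Acta2 (smooth muscle actin), and were not tested. Calls were made with limma's moderated test at a Benjamini-Hochberg adjusted p below 0.05 over all clusters tested. In PPE vs. normal aorta 933 of 65663 clusters were higher and 1731 lower. Read from the brightest cluster of each gene, 780 of 36017 genes rose (2.17%) and 773 fell (2.15%), with a median difference of -0.01 over all genes. Of the rises 354 were at least 2-fold, and of the falls 183. With 2.17% and 2.15% of all genes called, a single call in a gene list concerns that gene and not the list. These shares are the background of every list count below, and no list was tested as a set. All genes also include 3465 expressed in neither group, and the lists were chosen with earlier results of these data known. List counts are therefore a description. Among the 6874 genes with per-array values, all 6 PPE arrays lay above all 5 normal aortas for 633 genes (9.21%) and below them for 718 genes (10.4%).

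The arrays of a group were not alike, and this touches every result below. The normal aortas numbered 4 and 5 lay toward PPE: their mean level over 22 contraction genes was 11.39 and 11.04, against 12.09 to 12.52 in the other normal aortas. Over 26 monocyte and macrophage genes these levels were 8.83 and 8.89, against 7.06 to 8.24. Among the aneurysms, PPE 5 had the lowest macrophage level of 8.77, against 9.47 to 10.58 in the others, while its contraction level of 10.47 was within the PPE range of 10.10 to 10.53. Results are therefore also given without normal aortas 4 and 5, an alternative chosen after these values were seen and one that by its construction tends to widen differences. Smaller p-values and added calls without these arrays follow in part from that choice and are no further test. Without both, 679 genes rose and 946 fell. The number of rises depended strongly on single arrays. It was 247 without normal aorta 3, 291 without normal aorta 2, 306 to 445 without any of PPE 1 to 4, and 1412 without PPE 5. The number of falls was 441 without normal aorta 3, 442 without PPE 4, 510 without normal aorta 2, and at most 933 without normal aorta 5.

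**Figure D1:**
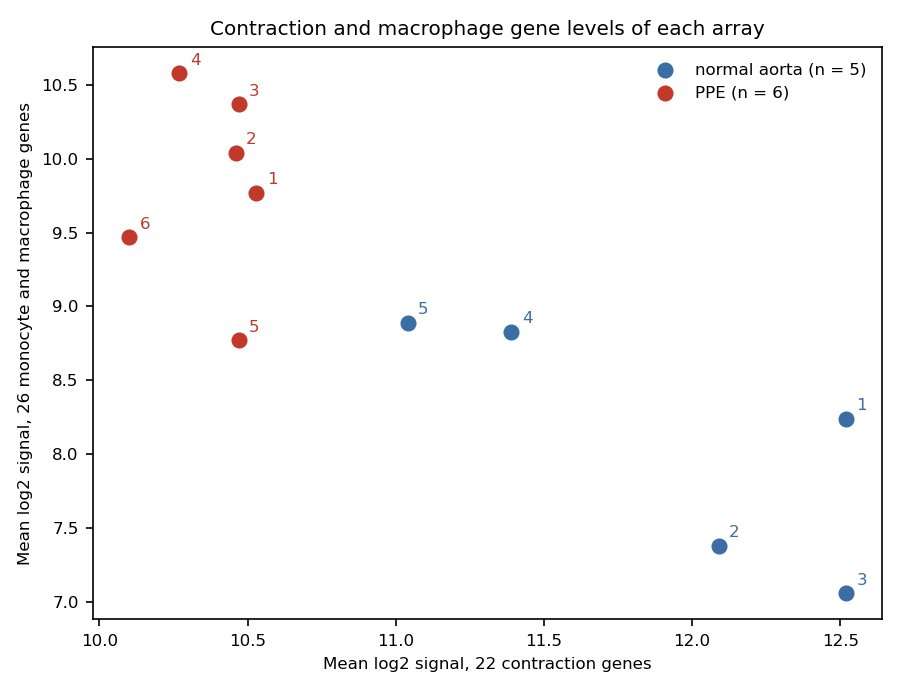
Mean log2 signal of 22 contraction genes (x axis) against that of 26 monocyte and macrophage genes (y axis), 1 point per array with its replicate number (blue, 5 normal aortas; red, 6 PPE). All PPE arrays lie at or below 10.53 on the contraction axis, and normal aortas 4 and 5 lie between the other normal aortas and PPE on that axis, whereas on the macrophage axis they lie above PPE 5.

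The largest falls included genes outside the classical contractile set. Hhip, an extracellular decoy receptor that binds hedgehog ligands (chromosome 8, 79965851 to 80058008, mm10), had log2 signals of 11.76, 10.33, 11.53, 9.67 and 9.04 in normal aortas 1 to 5 and from 5.09 to 6.34, with a median of 5.46 in the 6 PPE arrays. Every aneurysm was below every normal aorta by more than 2 log2 units, and Hhip fell by 4.85 ± 0.48 (adjusted p = 2.94e-05), a 28.9-fold difference; errors after ± are standard errors on the log2 scale unless given as SD. Sytl5, a synaptotagmin-like protein that binds the vesicle GTPase Rab27 (chromosome X, 9885621 to 9994543), gave 10.25, 9.73, 10.61, 9.49 and 9.91 in the normal aortas and from 5.80 to 6.39, with a median of 5.86 in PPE. Normal aortas 4 and 5 lay beside normal aorta 2 for this gene, and Sytl5 fell by 4.04 ± 0.34 (adjusted p = 6.71e-06). The groups did not overlap for either gene.

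The other large falls included genes of muscle proteins and of secreted proteins. Dmd encodes dystrophin, which ties the actin cytoskeleton to the basement membrane, and its signals of 13.14, 12.59, 13.40, 12.73 and 12.30 in the normal aortas stood against PPE values from 8.76 to 10.15, with a median of 9.39. The groups were separated by more than 2 log2 units, and it fell by 3.41 ± 0.46 (adjusted p = 0.000459). Pi15, a secreted protein of the CAP family with reported protease inhibitor activity, fell by 2.95 ± 0.52 (adjusted p = 0.00389). Further falls among the 15 largest were of Itga8 (integrin alpha 8, -2.85), Synpo2 (synaptopodin 2, an actin-bundling protein of the Z-disc and dense body, -2.77), Myom1 (myomesin 1, -2.77), Ppp1r14a (CPI-17, an inhibitor of myosin phosphatase, -2.74), Mylk4 (a myosin light chain kinase family member, -2.54), the guidance cue Sema3c (-2.49), the neurotrophin receptor Ntrk3 (-2.41) and the diacylglycerol kinase Dgkb (-2.41). Of the 6 falls with the smallest p-values, Hhip and Sytl5 were among the largest and the other 4 were smaller. Slc4a10, a sodium-coupled bicarbonate transporter, gave 7.21, 6.52, 6.76, 6.23 and 6.61 in the normal aortas and from 4.66 to 5.03, with a median of 4.80 in PPE, and fell by 1.85 ± 0.13 (adjusted p = 1.39e-06). Tet1, which oxidises methylcytosine in DNA, was tight within PPE at 4.65 to 4.80 and fell by 1.22 ± 0.11 (adjusted p = 1.28e-05). The angiopoietin-like gene Angptl7 fell by 1.16 ± 0.11 (adjusted p = 1.62e-05), and Ifltd1, a lamin tail domain gene, fell by 0.45 ± 0.05 (adjusted p = 7.84e-05).

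**Figure D2:**
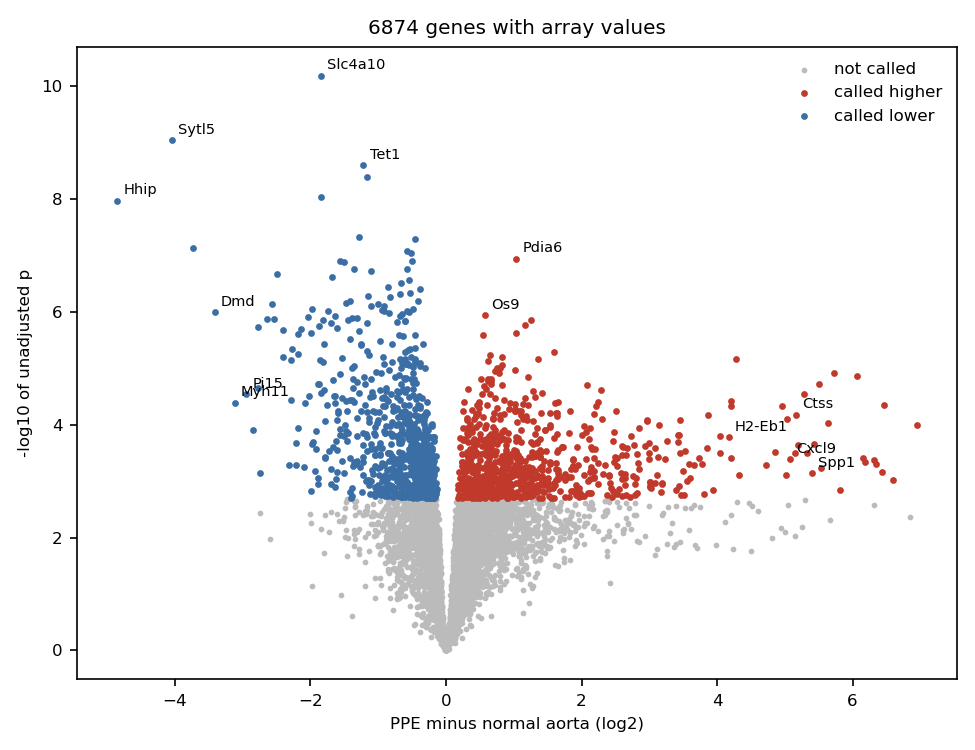
Difference PPE minus normal aorta (x axis, log2) against -log10 of the unadjusted p (y axis) for the 6874 genes with array values, 1 point per gene (red, called higher; blue, called lower; grey, not called). Rises reach further than falls, while the smallest p-values belong to falls such as Slc4a10 and Sytl5; the called points right of Spp1 are immunoglobulin chain genes.

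Apart from immunoglobulin chain genes, which rose by up to 6.95, the largest rises were of genes of macrophages and antigen presentation, and the 3 largest of these had larger standard errors than the 3 largest falls. Spp1, osteopontin, an adhesive phosphoprotein secreted by macrophages and modulated smooth muscle cells (chromosome 5, 104435111 to 104441053), gave 8.15, 5.66, 5.55, 13.24 and 12.87 in the normal aortas and from 10.73 to 16.57, with a median of 14.97 in PPE. Normal aortas 4 and 5 were above PPE 5 (10.73), so the groups overlapped, and Spp1 rose by 5.40 ± 1.31 (adjusted p = 0.0280). Without normal aortas 4 and 5 its difference was 8.04 (adjusted p = 0.000243). This is no further test, because the high values of both arrays were thereby taken out. Ctss, cathepsin S, an elastinolytic cysteine protease that also processes the invariant chain (chromosome 3, 95526786 to 95556405), gave 11.02, 8.40, 7.57, 12.60 and 14.29 and in PPE values from 14.38 to 17.13, with a median of 16.22. All PPE arrays were above all normal aortas, though PPE 5 (14.38) was close to normal aorta 5, and Ctss rose by 5.16 ± 0.99 (adjusted p = 0.00667). The chemokine Cxcl9, which is induced by interferon gamma and attracts T cells, rose by 5.07 ± 1.16 (adjusted p = 0.0201), from normal aortas at 6.49, 5.55, 4.89, 8.55 and 9.63 to PPE values from 9.38 to 14.41, with a median of 12.52. PPE 5 again lay within the range of the normal aortas.

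The other rises among the 15 largest were of H2-Eb1 (4.17) and H2-Ab1 (3.87), which encode chains of MHC class II, the inhibitory receptors Lilrb4a (4.04) and Lilr4b (3.66), Ly86 (MD-1, a partner of the Toll-like receptor homologue RP105, 3.85), Clec7a (dectin-1, 3.80), C3ar1 (the C3a receptor, 3.78), Ms4a6c (3.73), Cybb (the catalytic subunit of the phagocyte NADPH oxidase, 3.58), Ptprc (CD45, 3.55), the tetraspanin Cd53 (3.52) and the serine protease inhibitor Serpina3n (3.49). Lilrb4a and Lilr4b are near-identical copies, and the array may not separate them. Immunoglobulin chain genes were left out of this naming because their segments share sequence: 50 of them were called higher, by 0.38 to 6.95, and none lower.

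**Figure D3:**
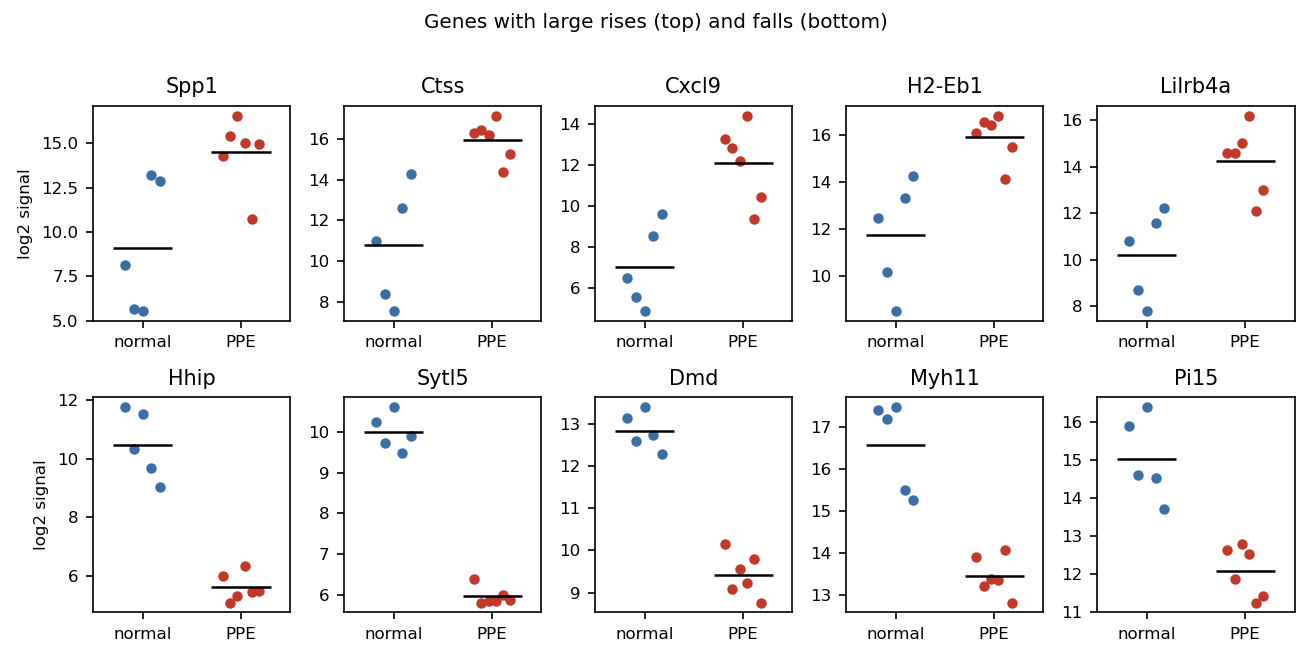
Log2 signal (y axis) of 5 named genes with large rises (top) and of 5 with large falls (bottom), 1 point per array in replicate order from left to right (blue, 5 normal aortas; red, 6 PPE) with the group mean as a bar. The falls separate the groups without overlap, whereas Spp1, Cxcl9, H2-Eb1 and Lilrb4a have a PPE array within the range of the normal aortas.

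Genes of the contractile apparatus fell together. Of 28 tested members of the list, 16 fell (57.1%, against 2.15% of all genes) and none rose, and of 22 members with array values 16 had all PPE arrays below all normal aortas, against 10.4% of all genes with such values. The list was chosen with earlier results of these data known. All genes also include 3465 expressed in neither group, against 0 in the list. The shares are therefore a description and no test of the list. The median difference was -1.09, and without normal aortas 4 and 5 there were 20 falls with a median of -1.57. As those arrays were picked by their values, results without them in this list are no further test. Myh11, the smooth muscle myosin heavy chain (chromosome 16, 14194527 to 14291408), gave 17.42, 17.19, 17.48, 15.51 and 15.26 in normal aortas 1 to 5 and from 12.81 to 14.07, with a median of 13.36 in PPE. Normal aortas 4 and 5 were below the other normal aortas and still above every aneurysm. Myh11 fell by 3.12 ± 0.57 (adjusted p = 0.00490), which is 8.71-fold in linear terms, and its difference without normal aortas 4 and 5 was -3.91 (adjusted p = 0.00139). The regulatory partners moved with it: the light chains Myl9 (-1.89) and Myl6 (-1.47), the kinase Mylk that activates myosin (-1.06) and Ppp1r12b, a targeting subunit of myosin phosphatase (-0.55), all fell.

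Thin-filament and dense-body genes fell to different extents. Calponin, Cnn1, gave 16.37, 15.59, 16.64, 14.55 and 13.84 in the normal aortas and from 12.65 to 13.78, with a median of 13.00 in PPE, so that PPE 5 at 13.78 nearly met normal aorta 5, and it fell by 2.31 ± 0.54 (adjusted p = 0.0231). The tropomyosins Tpm2 (-2.08) and Tpm1 (-1.36), filamin A (Flna, -2.02), the adhesion protein Pgm5 (-1.89), nexilin (Nexn, -1.85), smoothelin (Smtn, -1.50) and leiomodin 1 (Lmod1, -1.04) fell as well. Tagln, or SM22 alpha, was among the brightest clusters with 17.75, 17.72, 18.07, 17.75 and 17.48 in the normal aortas and from 16.98 to 17.43, with a median of 17.34 in PPE. Its arrays did not overlap, but the difference was -0.46 ± 0.13 (adjusted p = 0.0543), short of the threshold. Acta2 was at the ceiling and gave no difference. Values for members that were not called included -0.92 ± 0.29 (adjusted p = 0.0832) for gamma smooth muscle actin (Actg2) and -0.68 ± 0.21 (adjusted p = 0.0743) for caldesmon (Cald1). When single arrays were left out, the number of falls in this list lay between 12 and 19.

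Serum response factor binds the CArG box, which occurs in many smooth muscle promoters, and the letters of this motif were searched on both strands of the windows from 250 bases before to 50 bases after each RefSeq start (GRCm38.p6). The motif reads the same on either strand. It was present in 4 of 23 contraction genes with a promoter in the table (17.4%), in 2 of 9 genes of the dystrophin complex, and in 488 of 27025 genes overall (1.81%). It was in 0 of 9 relaxation genes, 0 of 12 vasoconstrictor receptors, 2 of 8 skeletal muscle genes, 0 of 20 macrophage genes, 2 of 15 immediate early genes and 1 of 9 mast cell genes, and differences between these shares were not tested. The promoters of genes of these 2 muscle lists that held the motif and fell are shown, in lower case with the CArG box in capitals; a match is a description of the letters and not evidence of binding. The motif started 161 bases before the transcript start in Myl9, 50 in Myl6, 35 in Ldb3, 98 in Dmd and 39 in Lama2. Windows of Myh11, Tagln and Actg2 were not analysed here.
Myl9 (chr2:156775214-156775513, + strand): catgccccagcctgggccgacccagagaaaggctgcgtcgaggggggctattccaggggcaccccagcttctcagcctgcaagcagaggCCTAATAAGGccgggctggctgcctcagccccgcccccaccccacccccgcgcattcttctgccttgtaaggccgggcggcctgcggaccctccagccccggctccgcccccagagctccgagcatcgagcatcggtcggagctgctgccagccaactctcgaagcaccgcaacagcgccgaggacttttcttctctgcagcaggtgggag
Myl6 (chr10:128492960-128493259, - strand): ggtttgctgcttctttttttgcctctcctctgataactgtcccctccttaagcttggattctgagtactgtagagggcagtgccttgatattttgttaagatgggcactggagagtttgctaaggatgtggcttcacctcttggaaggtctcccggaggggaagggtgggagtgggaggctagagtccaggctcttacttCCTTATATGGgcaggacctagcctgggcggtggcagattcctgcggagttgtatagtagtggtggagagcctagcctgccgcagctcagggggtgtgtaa
Ldb3 (chr14:34588632-34588931, - strand): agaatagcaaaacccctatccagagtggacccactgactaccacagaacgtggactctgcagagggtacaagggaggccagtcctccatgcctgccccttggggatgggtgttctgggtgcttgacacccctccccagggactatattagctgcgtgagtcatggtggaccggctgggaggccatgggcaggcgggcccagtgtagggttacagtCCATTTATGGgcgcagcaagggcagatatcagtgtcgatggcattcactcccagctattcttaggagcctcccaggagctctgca
Dmd (chrX:82948620-82948919, + strand): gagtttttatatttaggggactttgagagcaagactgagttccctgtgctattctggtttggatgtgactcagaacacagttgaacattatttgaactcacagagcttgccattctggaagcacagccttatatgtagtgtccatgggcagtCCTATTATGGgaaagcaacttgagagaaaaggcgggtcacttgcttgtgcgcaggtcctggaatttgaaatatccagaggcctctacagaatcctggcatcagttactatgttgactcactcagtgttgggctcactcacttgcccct
Lama2 (chr10:27616893-27617192, - strand): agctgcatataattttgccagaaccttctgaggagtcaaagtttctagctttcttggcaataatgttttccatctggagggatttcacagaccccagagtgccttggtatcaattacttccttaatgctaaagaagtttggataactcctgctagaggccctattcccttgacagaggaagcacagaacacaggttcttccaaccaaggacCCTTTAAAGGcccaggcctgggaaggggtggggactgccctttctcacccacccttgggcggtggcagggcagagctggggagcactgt

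Genes of the electrical and calcium machinery that triggers contraction fell as well, in 10 of 21 members tested (47.6%, against 2.15% of all genes). Their median was -0.72, and none rose. Cacna1c, the pore of the L-type calcium channel, gave 8.32, 7.90, 8.26, 7.54 and 7.18 in the normal aortas and from 6.29 to 6.73, with a median of 6.54 in PPE with no overlap, and fell by 1.31 ± 0.18 (adjusted p = 0.000525). Its auxiliary subunit Cacnb2 fell by 1.14 ± 0.18 (adjusted p = 0.00139). Subunits of potassium channels that set the membrane potential were also lower: Kcnab1 fell by 2.14 ± 0.31 (adjusted p = 0.000672), Kcnmb1 fell by 1.96 ± 0.42 (adjusted p = 0.0132) and Kcnma1 fell by 1.44 ± 0.30 (adjusted p = 0.0107). Plcb4, a phospholipase C downstream of G protein receptors (-2.29), and Itpr1, the inositol trisphosphate receptor that releases stored calcium (-0.96), fell too. Not all of this machinery was called: phospholamban (Pln) was at 0.11 ± 0.16 (adjusted p = 0.812) and the store-operated channel Orai1 at 0.16 ± 0.13 (adjusted p = 0.596). Leaving out single arrays, the lowest number of falls was 7 (without normal aorta 3, or PPE 4 or 6).

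Some genes for relaxation (46.2% of members tested, against 2.15% of all genes) fell alongside those for contraction. In the nitric oxide and cyclic GMP pathway 6 of 13 members fell and none rose, with a median of -1.11: the beta subunit of soluble guanylate cyclase (listed as Gucy1b3, -1.92), protein kinase G (Prkg1, -1.11), its substrate Mrvi1 (-0.96), the natriuretic peptide receptor Npr1 (-1.18) and the phosphodiesterases Pde5a (-1.59) and Pde3a (-1.32), which degrade cyclic nucleotides. Of 15 vasoconstrictor receptors and their regulators 4 fell. The serotonin receptor Htr2a (normal aortas 8.17, 7.67, 8.26, 7.82 and 6.95; PPE from 5.98 to 6.67, with a median of 6.36) fell by 1.41 ± 0.18 (adjusted p = 0.000358) with no overlap of arrays. The adrenergic receptors Adra1a (-0.63) and Adra1d (-0.32) and the vasopressin receptor Avpr1a (-0.69) fell by less. The angiotensin receptor Agtr1a was at 0.12 ± 0.10 (adjusted p = 0.581) and the endothelin receptor Ednra at -0.69 ± 0.45 (adjusted p = 0.465). The number of falls in the relaxation list lay between 3 (without normal aorta 3) and 8 (without normal aorta 5 or PPE 5).

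The list of the dystrophin complex, which links actin through the membrane to laminin, had 9 falls among 17 members tested (52.9%, against 2.15% of all genes). It had no rise (median -0.70). Beside Dmd, members that fell included the sarcoglycans Sgcd (-1.05) and Sgca (-0.70), dystrobrevin (Dtna, -1.39) and utrophin (Utrn, -0.88). Dystroglycan (Dag1) was at -0.01 ± 0.12 (adjusted p = 0.985). The list also holds laminin chains, of which Lama2, Lama4 and Lama5 fell. These chains are counted again in the basement membrane list, so the falls of the 2 lists are not separate results. Of 25 transcription factors of smooth muscle and mesenchyme 4 fell. Hey2, a Notch target that represses transcription, gave 9.71, 9.86, 9.77, 8.98 and 8.68 in the normal aortas and from 7.29 to 7.90, with a median of 7.58 in PPE, and fell by 1.81 ± 0.29 (adjusted p = 0.00163). Its relative Heyl (-0.53), Gata6 (-0.63) and Foxc1 (-0.59) fell less. Myocardin itself (Myocd) overlapped between groups, with 8.73, 7.61, 7.95, 6.95 and 6.59 in the normal aortas and from 6.26 to 6.75, with a median of 6.55 in PPE, and its difference of -1.02 ± 0.32 (adjusted p = 0.0847) was not called. Srf was at -0.34 ± 0.13 (adjusted p = 0.149) and Klf4, a repressor of contractile genes, at -0.25 ± 0.13 (adjusted p = 0.326). The precursors of the smooth muscle microRNAs miR-143 and miR-145 were lower: Mir145a fell by 2.22 ± 0.52 (adjusted p = 0.0232) and Mir143 fell by 1.72 ± 0.38 (adjusted p = 0.0167), both without overlap of arrays. Without normal aortas 4 and 5, 8 transcription factors fell. Leaving out single arrays, it lay between 2 (without normal aorta 2, or PPE 1 or 4) and 6 (without normal aorta 5), and the lowest number for the dystrophin complex was 6 (without normal aorta 3).

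Monocyte and macrophage genes were the cell type list with the largest share of rises: of 29 members tested, 15 rose (51.7%, against 2.17% of all genes) and 1 fell, with a median of 1.84. This list too was chosen with earlier results of these data known, so its share is a description. The lysosomal glycoprotein Cd68 gave 10.12, 8.07, 7.02, 10.46 and 10.31 in the normal aortas and from 11.66 to 13.71, with a median of 12.68 in PPE without overlap, and rose by 3.43 ± 0.73 (adjusted p = 0.0133). Adgre1, an adhesion receptor that marks mouse macrophages (normal aortas 8.86, 7.62, 7.28, 9.61 and 10.25; PPE from 10.25 to 12.41, with a median of 11.73), rose by 2.85 ± 0.57 (adjusted p = 0.00946), and normal aorta 5 reached the value of PPE 5. Rises of C1qa (2.30), C1qb (3.46) and C1qc (2.19), of the signalling adaptor Tyrobp (3.14), the growth factor receptor Csf1r (1.84) and lysozyme (Lyz2, 2.04) went the same way. Ccr2, the chemokine receptor of blood-derived monocytes, rose by 2.65 ± 0.72 (adjusted p = 0.0461), although PPE 5 with 6.71 was below normal aortas 4 and 5 (7.77 and 8.64).

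Genes of resident tissue macrophages gave mixed values. Timd4, a receptor for phosphatidylserine on self-maintaining resident macrophages, gave 5.94, 5.76, 5.26, 5.73 and 4.88 in the normal aortas and from 4.52 to 4.89, with a median of 4.71 in PPE. PPE 4 met normal aorta 5 and the others did not overlap, and Timd4 fell by 0.81 ± 0.14 (adjusted p = 0.00389). Cd163, a haemoglobin scavenger receptor, was at -0.71 ± 0.21 (adjusted p = 0.0614), Vsig4 at -0.44 ± 0.14 (adjusted p = 0.0897), Mertk at -0.54 ± 0.18 (adjusted p = 0.104) and Lyve1 at 0.05 ± 0.35 (adjusted p = 0.973), while the mannose receptor Mrc1 rose by 1.47 ± 0.38 (adjusted p = 0.0362). Without normal aortas 4 and 5, a choice made after the macrophage levels were seen, 19 members rose and 3 fell. The number of rises was 6 without normal aorta 3, 7 without normal aorta 2, 7 without PPE 4, 8 without PPE 2 or PPE 3, 19 without PPE 5, and 9 when the spread was taken from the 11 arrays alone. Within PPE the macrophage level ranged from 8.77 in PPE 5 to 10.58 in PPE 4, while contraction levels spanned 10.10 to 10.53.

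Receptors of innate immunity rose in 15 of 36 members (41.7%, against 2.17% of all genes) with a median of 1.86, and none fell. Besides Lilrb4a and Clec7a, the Fc receptors for immunoglobulin G Fcgr3 (2.03), Fcgr4 (2.72) and Fcgr2b (2.48) rose. So did Fcer1g (3.26), a signalling chain of activating Fc receptors, the endosomal RNA sensors Tlr7 (1.82) and Tlr8 (2.20), and Ms4a7 (3.23). The lipopolysaccharide receptor Tlr4 was at 0.41 ± 0.22 (adjusted p = 0.353). The number of rises in this list lay between 3 (without normal aorta 3) and 28 (without PPE 5). Complement genes rose in 11 of 26 members (42.3%). C3, the central component, was already bright in the normal aortas at 17.04, 16.02, 15.16, 17.98 and 17.56 and reached values from 18.65 to 19.44, with a median of 18.84 in PPE, and it rose by 2.22 ± 0.41 (adjusted p = 0.00535). C4b (2.41), C1s1 (1.39), C2 (1.03) and C6 (0.86) rose too, whereas the terminal component Hc (C5) was at 0.00 ± 0.04 (adjusted p = 1.00). Genes of lysosomes and lipid handling rose in 6 of 29 members, among them lysosomal lipase (Lipa, 1.61), the cholesterol-esterifying enzyme Soat1 (1.65) and the cholesterol carrier Npc2 (1.14). Trem2 was at 0.68 ± 0.21 (adjusted p = 0.0811) and Gpnmb at 0.80 ± 0.59 (adjusted p = 0.537). The number of complement rises lay between 4 (without normal aorta 2 or 3) and 12 (without PPE 5), and that of lysosomal rises between 3 (without normal aorta 2 or 3, or PPE 3 or 4) and 9 (without PPE 5). The C1q, Ms4a and Fc receptor genes belong to families of related sequence, in which hybridisation across members was not tested.

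Some genes of antigen presentation and leukocyte attraction rose, and none of the 3 lists had a fall. Of 13 genes of MHC class II presentation 7 rose (53.8%, against 2.17% of all genes) and none fell (median 1.37). H2-Aa rose by 2.51 ± 0.47 (adjusted p = 0.00613), H2-DMb1, a peptide loading factor, rose by 2.48 ± 0.51 (adjusted p = 0.0103), and their transcriptional activator Ciita rose by 1.37 ± 0.35 (adjusted p = 0.0363). For H2-Eb1 the normal aortas spanned 8.52 to 14.23, wider than the 14.10 to 16.81 of PPE. MHC class I and immunoproteasome genes rose in 2 of 12 members, H2-K1 (2.11) and H2-M3 (1.41). Chemokines and their receptors rose in 11 of 33 members (33.3%) and none fell. Ccl8 rose by 3.43 ± 0.71 (adjusted p = 0.0112), Ccl9 rose by 2.67 ± 0.58 (adjusted p = 0.0154) and Ccl6 rose by 2.24 ± 0.41 (adjusted p = 0.00484), each with all PPE arrays above all normal aortas. The B cell attractant Cxcl13 (3.44), Cxcl16 (2.80), Cxcl12 (1.53) and the receptors Cxcr4 (2.40) and Cxcr6 (1.25) rose. Neutrophil attractants were not called, with Cxcl1 at 0.26 ± 0.17 (adjusted p = 0.486) and Cxcl2 at 0.23 ± 0.15 (adjusted p = 0.487). The number of chemokine rises lay between 3 (without normal aorta 3) and 17 (without PPE 5), and that of MHC class I rises was 7 without PPE 5 and 1 when any single array other than normal aorta 1 or 5, or PPE 5 was left out. The H2 genes resemble each other in sequence, so signal shared between them cannot be told apart.

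Interferon-stimulated genes had a high median difference of 1.61 over 31 members, but only 3 rose, among them Ifi27l2a (1.93) and Slfn2 (2.09). Ifit1 ran from 4.63 to 7.94 in the normal aortas and from 6.17 to 10.62, with a median of 8.50 in PPE, with a difference of 2.73 ± 0.89 (adjusted p = 0.0937). The list mean was 9.84 and 9.86 in PPE 3 and 4 and 7.47 in PPE 5, which lay below the 7.91 of normal aorta 4, and the number of rises lay between 0 (without normal aorta 3) and 14 (without PPE 5). Interleukin, TNF and inflammasome genes rose in 5 of 31 members, among them the decoy receptor osteoprotegerin (Tnfrsf11b), which rose by 2.06 ± 0.42 (adjusted p = 0.0103), and the TNF receptor Tnfrsf1b, which rose by 2.01 ± 0.41 (adjusted p = 0.0111). The cytokines themselves were not called: Il1b was at 2.31 ± 0.81 (adjusted p = 0.115), Tnf at 0.75 ± 0.29 (adjusted p = 0.161) and Il6 at 0.36 ± 0.22 (adjusted p = 0.427). Without PPE 5, 10 members rose, against 2 without normal aorta 2 or 3, or PPE 2, 3 or 4.

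Some genes of lymphocytes rose. Of 25 T and NK cell genes 5 rose, among them the interleukin-7 receptor Il7r (2.78), the costimulator Icos (1.61), Cd4 (1.35) and Thy1 (0.83), which adventitial fibroblasts also express. The T cell receptor chain Cd3e was at 1.48 ± 0.46 (adjusted p = 0.0807), and the cytotoxic proteins Gzmb at 0.08 ± 0.27 (adjusted p = 0.937) and Prf1 at 0.22 ± 0.14 (adjusted p = 0.465). Leaving out single arrays gave 2 to 13 rises, the highest number without PPE 5 and the lowest when any single array other than normal aorta 5, or PPE 5 or 6 was left out. Among 19 B and plasma cell genes 2 rose, Jchain and Prdm1 (0.44), a transcription factor of plasma cells. Jchain, which joins polymeric immunoglobulins in plasma cells, gave 6.23, 5.78, 4.64, 5.83 and 6.33 in the normal aortas and 13.00, 6.49, 6.31, 9.95, 9.94 and 9.69 in PPE 1 to 6. PPE 2 and 3 thus stood near the normal aortas while the other aneurysms were more than 3 log2 units above every normal aorta, and Jchain rose by 3.47 ± 0.94 (adjusted p = 0.0461). No gene of this list rose without normal aorta 3. Dendritic cell genes rose in 3 of 14 members, Itgax (2.37), Cd209a (1.14) and Clec9a (1.09), and 6 rose without PPE 5 but only 1 when any single array other than normal aorta 5 or PPE 5 was left out. Among 13 neutrophil genes none rose and Ngp fell (-0.37), with S100a8 at -0.35 ± 0.41 (adjusted p = 0.745). The fall of Ngp was not called when any single array other than normal aorta 1, 3 or 5, or PPE 5 was left out. Among 11 mast cell genes Kit fell (-0.92) and the carboxypeptidase Cpa3 of their granules was at -0.47 ± 0.49 (adjusted p = 0.704). Slc4a1 was the only call among 8 genes of red blood cells and platelets (-0.23), and it was lost when any single array other than PPE 5 was left out.

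**Figure D4:**
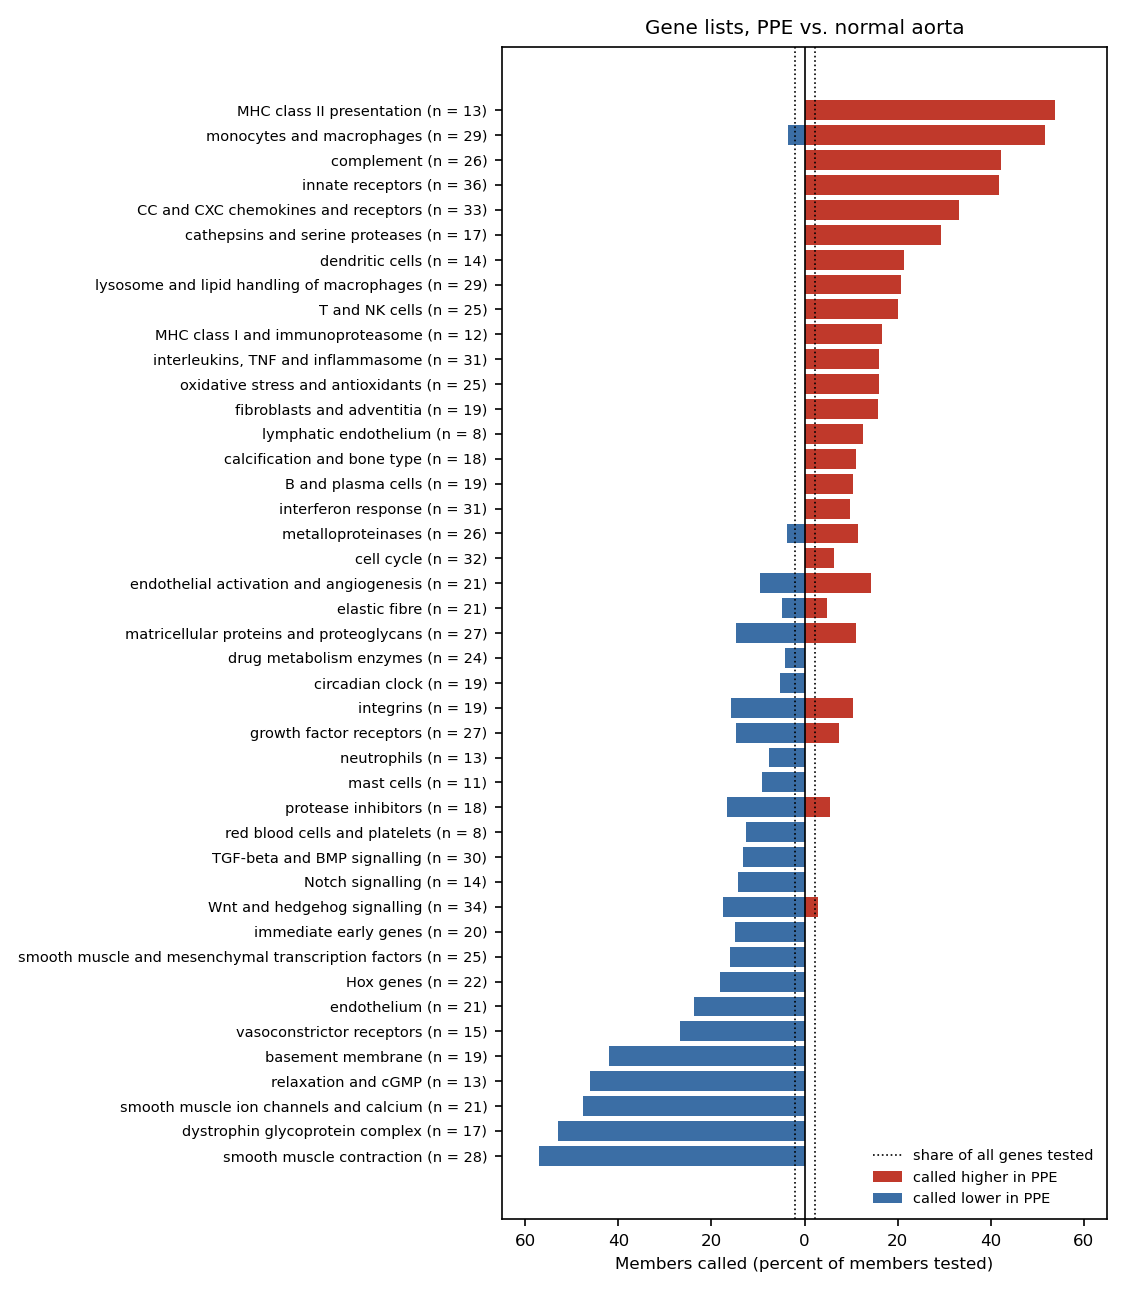
Share of members tested that were called higher (red, to the right) or lower (blue, to the left) in PPE for each list with at least 1 call (x axis, percent; n is the number of members tested). The list of the endoplasmic reticulum, written after the values were seen, is not drawn. Dotted lines mark the 2.17% and 2.15% of all genes that were called. Immune lists lie at the top and smooth muscle lists at the bottom. Lists were chosen with earlier results of these data known, so distances to the lines are a description.

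The main structural collagens did not differ detectably. None of 21 fibrillar collagen and collagen-processing genes was called, and the median difference was 0.08. Col1a1 had mean log2 signals of 13.96 ± 0.89 in normal aorta and 14.04 ± 0.68 in PPE (SD, authors' averages), a difference of 0.08 ± 0.39 (adjusted p = 0.957), and Col3a1 was at -0.61 ± 0.39 (adjusted p = 0.462). The short-chain collagen Col8a1 gave 6.06, 5.07, 4.76, 7.26 and 8.97 in the normal aortas and from 6.64 to 10.80, with a median of 9.04 in PPE. Normal aorta 5 was within the PPE range and PPE 5 within the normal range, and its difference of 2.53 ± 0.71 (adjusted p = 0.0546) missed the threshold. Col12a1, a collagen of stretched tissue, was at 2.61 ± 0.86 (adjusted p = 0.0958). Without normal aortas 4 and 5, 3 members of the list rose, with Col8a1 at 3.65 (adjusted p = 0.00402). The high Col8a1 values of both arrays, 7.26 and 8.97, were thereby taken out, so this is no further test.

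Basement membrane genes fell in 8 of 19 members (42.1%, against 2.15% of all genes) and none rose. The laminin chain Lama2, which is bound by the dystrophin complex, gave 10.56, 9.78, 10.49, 9.61 and 8.85 in the normal aortas and from 7.41 to 8.61, with a median of 8.35 in PPE, and fell by 1.67 ± 0.36 (adjusted p = 0.0149). Lama4 (-0.93), Lama5 (-0.65) and Lama3 (-0.34) and the minor collagen IV chains Col4a5 (-0.90), Col4a6 (-0.60), Col4a3 (-0.39) and Col4a4 (-0.29) fell. The major chains Col4a1 (0.06 ± 0.15, adjusted p = 0.904) and Col4a2 (0.07 ± 0.12, adjusted p = 0.846) were not called. Without normal aorta 3, 4 of these genes fell.

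Elastic fibre genes gave 1 rise and 1 fall among 21 members (4.76% each, against 2.17% and 2.15% of all genes). The fall was lost when any single array other than normal aorta 4 or 5 was left out. The rise was lost with only the 11 arrays of both groups in the fit. Elastin (Eln) was at -0.52 ± 0.43 (adjusted p = 0.596) and fibrillin 1 (Fbn1) at -0.40 ± 0.32 (adjusted p = 0.583), both from group averages, so that no decrease or increase of their transcripts was detectable with these errors. Ltbp2, a microfibril protein, gave 6.99, 6.11, 5.73, 7.91 and 8.75 in the normal aortas and from 7.73 to 10.96, with a median of 9.79 in PPE. PPE 5 lay within the range of the normal aortas, and Ltbp2 rose by 2.60 ± 0.56 (adjusted p = 0.0148). Its relative Ltbp1, which tethers latent TGF-beta to the matrix, gave 12.09, 11.40, 12.29, 10.68 and 10.70 and from 9.72 to 10.36, with a median of 10.06, and fell by 1.40 ± 0.38 (adjusted p = 0.0498), just under the threshold. Among 27 matricellular proteins and proteoglycans 3 rose and 4 fell. Thrombospondin 2 (Thbs2, 2.14) and fibromodulin (Fmod, 1.59, just past the threshold) rose with Spp1. Osteomodulin (Omd) gave 10.65, 11.12, 11.34, 11.43 and 10.23 in the normal aortas and from 8.48 to 9.14, with a median of 9.01 in PPE, and fell by 2.04 ± 0.28 (adjusted p = 0.000520). Asporin (Aspn, -1.32), periostin (Postn, -1.10) and Hapln1 (-0.78), a link protein of hyaluronan, fell. Thrombospondin 1 (Thbs1) spanned 8.95 to 15.59 in the normal aortas and was not called at 3.20 ± 0.95 (adjusted p = 0.0684). For the matricellular list, the number of rises lay between 0 (without normal aorta 2 or 3, or PPE 2) and 5 (without normal aorta 5 or PPE 5) and that of falls between 2 (without normal aorta 3) and 5 (without PPE 2).

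Mmp12 and Ctss, both of which degrade elastin, rose. Mmp12, macrophage elastase, gave 7.08, 5.30, 4.92, 6.63 and 7.91 in the normal aortas and from 9.09 to 10.94, with a median of 9.77 in PPE. All aneurysms were above all normal aortas, with PPE 5, which had the lowest macrophage level, at the highest value of 10.94, and Mmp12 rose by 3.44 ± 0.71 (adjusted p = 0.0112). Mmp3, stromelysin 1, rose by 2.32 ± 0.57 (adjusted p = 0.0291) with PPE 2 inside the range of the normal aortas. Of 26 metalloproteinases, 3 rose (the other being Adam12, 0.50) and Adamts8 fell (-0.60). The gelatinases were not called, with Mmp2 at 0.90 ± 0.46 (adjusted p = 0.317) and Mmp9 at 0.04 ± 0.12 (adjusted p = 0.924), and Mmp13 was at 0.49 ± 0.49 (adjusted p = 0.688). Of 17 cathepsins and serine proteases 5 rose: Ctss, Ctsc (2.12), legumain (Lgmn, 1.91), Ctsz (1.66) and urokinase (Plau, 1.38). Cathepsin K (Ctsk) was at 0.25 ± 0.29 (adjusted p = 0.740). The number of rises lay between 1 (without normal aorta 2 or 3) and 6 (without normal aorta 4 or PPE 5). Among the metalloproteinases it lay between 1 (without normal aorta 2 or 3, or PPE 3 or 4) and 4 (without PPE 5).

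Of 18 protease inhibitors 1 rose and 3 fell, and the lowest number of falls was 1 (without normal aorta 1, 2 or 3, or PPE 2 or 4). The rise was lost without normal aorta 2 or 3, or PPE 1, 3 or 4, and with only the 11 arrays of both groups in the fit. Serpina3n gave 13.21, 11.01, 11.57, 15.22 and 13.41 in the normal aortas and from 14.31 to 18.59, with a median of 16.18 in PPE. The 2 groups overlapped at normal aorta 4, and it rose by 3.49 ± 0.84 (adjusted p = 0.0271). Besides Pi15, the membrane-anchored metalloproteinase inhibitor Reck fell by 0.87 ± 0.21 (adjusted p = 0.0262) and Timp4 fell by 1.07 ± 0.26 (adjusted p = 0.0286). Timp1, the inducible member of that family, was at 5.67 to 8.19 in the normal aortas and from 7.02 to 11.61, with a median of 9.31 in PPE, where PPE 5 lay below normal aortas 1, 4 and 5, and its difference of 2.70 ± 0.78 (adjusted p = 0.0615) was not called. Timp3, the matrix-bound member, was at -0.17 ± 0.25 (adjusted p = 0.811), and cystatin C (Cst3), the main inhibitor of cathepsins, at 0.30 ± 0.09 (adjusted p = 0.0715).

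**Figure D5:**
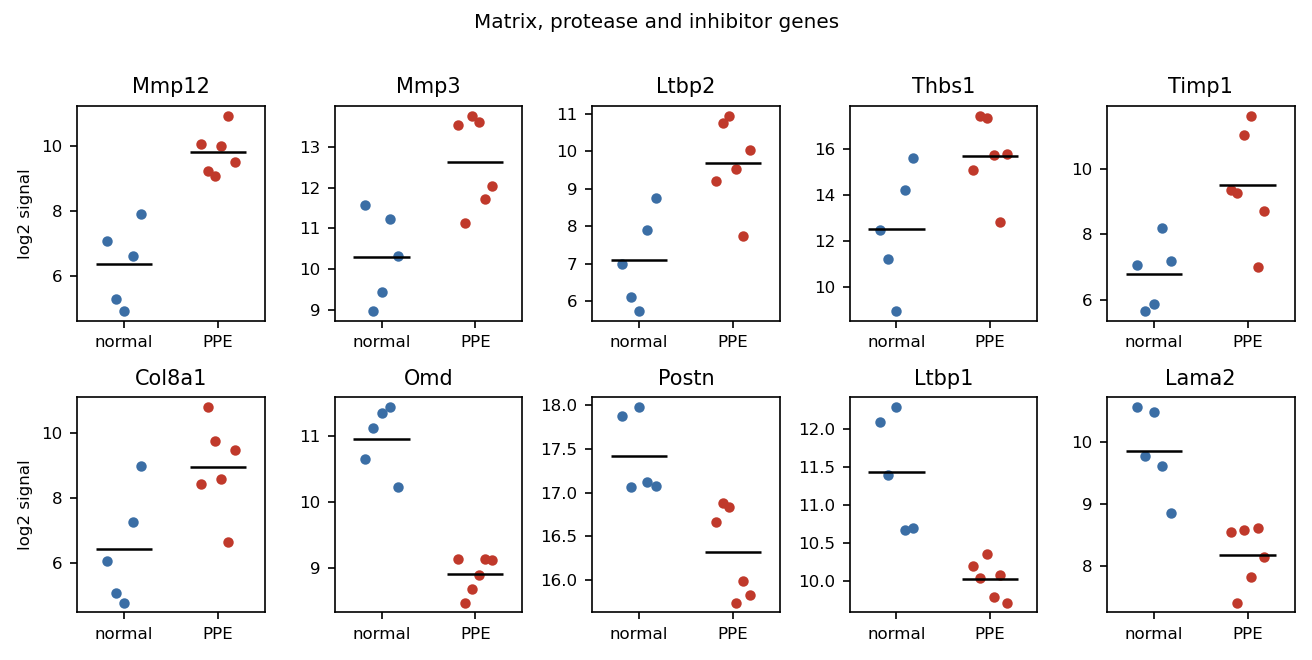
Log2 signal (y axis) of matrix, protease and inhibitor genes, 1 point per array in replicate order from left to right (blue, 5 normal aortas; red, 6 PPE) with the group mean as a bar. Mmp12, Omd, Postn, Ltbp1 and Lama2 separate the groups, whereas Mmp3, Ltbp2, Thbs1, Timp1 and Col8a1 overlap.

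Endothelial genes were lower in part. Of 21 members 5 fell and none rose (median -0.48). Von Willebrand factor (Vwf) gave 9.29, 11.64, 9.87, 9.81 and 8.55 in the normal aortas and from 6.99 to 8.19, with a median of 7.69 in PPE, and fell by 2.18 ± 0.44 (adjusted p = 0.00947). Pecam1, also known as CD31, fell by 1.69 ± 0.41 (adjusted p = 0.0258), and Tek, the angiopoietin receptor (-1.97), the phosphatase Ptprb (-2.10) and Clec14a (-1.22) fell. Normal aorta 2 had the highest level of this list, 9.98, against 7.88 to 8.82 in the other normal aortas, and the number of falls lay between 2 (without normal aorta 2 or PPE 4) and 7 (without normal aorta 5). The VEGF receptors Kdr (0.33 ± 0.26, adjusted p = 0.580) and Flt1 (0.12 ± 0.15, adjusted p = 0.773) and the junction protein Cldn5 (-0.01 ± 0.18, adjusted p = 0.999) were not called. In the list of activation and angiogenesis 3 of 21 members rose and 2 fell. The leukocyte adhesion molecules Vcam1 (1.96) and Sele (0.53) and the growth factor Pdgfb (0.49) rose, whereas the arterial ligand Efnb2 (-1.64) and Vegfc (-0.44) fell. Podoplanin (Pdpn, 1.41) was the only call among 8 lymphatic genes, and it is also found on inflamed fibroblasts and macrophages. This rise was lost without normal aorta 2 or 3, or PPE 4.

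Growth factor ligands were called in both directions. Pdgfd, a platelet-derived growth factor, gave 11.95, 11.29, 12.08, 11.13 and 10.30 in the normal aortas and from 9.23 to 9.68, with a median of 9.41 in PPE, and fell by 1.92 ± 0.39 (adjusted p = 0.0101), in contrast to Pdgfb. The stem cell factor Kitl (-0.83) fell with its receptor Kit, and the fibroblast product Fgf7 (1.21) rose. In all, 2 of 27 growth factor and receptor genes rose and 4 fell, and the list shares Vegfc and Pdgfb with that of angiogenesis and Kit with that of mast cells. Of 19 integrins 2 rose, the leukocyte chains Itgb2 (2.58) and Itgax, and 3 fell, Itga8, Itga9 (-1.65) and Itgb3 (-0.79). Among 19 fibroblast and adventitial genes 3 rose, Dpp4 (0.97), Thy1 and Ly6a (0.44). The fibroblast markers Lum (0.60 ± 0.32, adjusted p = 0.338) and Dpt (-0.30 ± 0.34, adjusted p = 0.731) were not called, and Dcn was at the ceiling. Without PPE 5, 8 integrins rose, and none rose without normal aorta 2 or 3, or PPE 1, 2, 3 or 4. Growth factor and receptor rises numbered 1 without normal aorta 2 or 3, or PPE 2, 3 or 4, and without normal aorta 1 or 3, or PPE 2, 3 or 4, no fibroblast gene rose.

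In signalling pathways most calls were falls. Of 34 Wnt and hedgehog genes 6 fell and 1 rose. Besides Hhip, the hedgehog effector Gli1 fell by 0.31 ± 0.07 (adjusted p = 0.0182), while the receptor Ptch1 was at -0.03 ± 0.16 (adjusted p = 0.961) and Smo at -0.05 ± 0.18 (adjusted p = 0.940). The Wnt receptors Fzd4 (-1.38), Fzd6 (-0.66) and Fzd8 (-0.45) and Lgr6 (-1.23) fell. The R-spondin Rspo3, a ligand of Lgr receptors that amplifies Wnt signals, gave 6.91, 6.44, 5.26, 6.87 and 7.35 in the normal aortas and from 7.79 to 8.64, with a median of 8.27 in PPE without overlap, and rose by 1.64 ± 0.36 (adjusted p = 0.0171). Of 30 TGF-beta and BMP genes 4 fell and none rose, among the falls those of the BMP receptors Bmpr1a (-1.39), Bmpr2 (-0.65) and Bmpr1b (-0.33). The ligand Tgfb1 was at 0.84 ± 0.24 (adjusted p = 0.0548) and its receptor Tgfbr2 at 0.11 ± 0.26 (adjusted p = 0.898). Of 14 Notch genes, Hey2 and Heyl fell, while Notch3, the receptor of smooth muscle, was at 0.03 ± 0.14 (adjusted p = 0.950). Only 1 Notch gene fell without normal aorta 2, or PPE 1 or 4. The number of falls in the Wnt and hedgehog list lay between 2 (without normal aorta 2 or 3) and 8 (without normal aorta 5), and in the TGF-beta list between 2 (without normal aorta 1 or 2, or PPE 1, 2, 4 or 5) and 5 (without normal aorta 5).

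Genes that mark position along the aorta, time of day and recent stimulation were also examined. Of 22 Hox genes 4 fell, Hoxa5 (-0.70), Hoxa6 (-0.55), Hoxb5 (-0.43) and Hoxa10 (-0.38), and none rose. In Hoxa5 the normal aortas were at 7.66, 8.07, 8.12, 8.07 and 7.62 and PPE ran from 6.84 to 7.48, with a median of 7.22, without overlap, but without normal aortas 4 and 5 the list had 1 fall, and 2 when any single array other than normal aorta 2 or 4, or PPE 3 or 5 was left out. Of 19 clock genes only Rora fell (-0.86), and 6 fell without normal aorta 5 or without PPE 5. Dbp was at -1.03 ± 0.43 (adjusted p = 0.194) and Nr1d1 at -0.83 ± 0.44 (adjusted p = 0.339), whereas Arntl, which peaks in the opposite phase to both, was at 0.63 ± 0.21 (adjusted p = 0.0942). The time of day of tissue collection was not given in the sources used here, so its part was not tested. Among 20 immediate early genes, which respond to stimulation and handling within minutes, Dusp1 (-1.49), Egr1 (-0.63) and Fosb (-0.35) fell and none rose. The number of falls lay between 1 (without PPE 2) and 5 (without normal aorta 5). Of 24 drug metabolism enzymes 1 was called. The flavin monooxygenases Fmo1 and Fmo2 were at -1.99 ± 0.63 (adjusted p = 0.0828) and -1.79 ± 0.54 (adjusted p = 0.0708), and PPE 5 had Fmo1 at 14.11, within the range of the normal aortas, while the other aneurysms lay between 10.34 and 11.46.

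Lists for cells that a piece of aorta can carry along gave few calls. Adipocyte genes had a median of -1.01 over 18 members, none was called, and none had per-array values. The authors' averages spread within both groups: Ucp1, the uncoupling protein of brown fat, had SDs of 4.42 in normal aorta and 5.26 in PPE, and Plin1, the perilipin of lipid droplets, had a mean of 8.82 ± 0.85 in normal aorta and 7.82 ± 1.69 in PPE (SD). The part of perivascular fat in the lower level of oxidative and fat oxidation genes (median -0.44 over 31 members, none called) was not tested. Nerve and Schwann cell genes (15 tested), skeletal muscle genes (12) and mesothelial genes (9) gave no call, with medians of 0.06, -0.02 and 0.07. The defining skeletal muscle genes Myh4 and Ckm were at mean log2 signals of 3.75 and 4.16 in normal aorta and 3.73 and 4.08 in PPE. The smooth muscle marker Myh11 was at or above 12.81 in all 11 arrays. Lmod1, another such marker, was dimmer, with a mean of 8.63 in normal aortas 1 to 3.

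Few genes of proliferation and stress were called. All 32 cell cycle genes had differences between 0.05 and 2.14, and 2 rose, the inhibitor Cdkn1a (1.22) and thymidine kinase Tk1 (0.30), whereas 12 rose without PPE 5 and none without normal aorta 2 or 3, or PPE 2 or 4. Mki67, a marker of cycling cells, gave 6.41, 5.95, 5.87, 7.56 and 8.63 in the normal aortas and from 6.87 to 9.76, with a median of 9.58 in PPE, with normal aorta 5 at the level of PPE 6, and was not called at 2.14 ± 0.60 (adjusted p = 0.0543). Of 25 genes of oxidative stress, 4 rose, among them the phagocyte NADPH oxidase subunits Cybb, Cyba (1.37) and Ncf1 (1.41), though none of the list was called without normal aorta 2 or 3 or without PPE 4. Nox4, the oxidase of smooth muscle, was at -1.35 ± 0.44 (adjusted p = 0.0954) with all PPE arrays below the normal aortas. Of 18 calcification and bone genes, Spp1 and Tnfrsf11b rose, though only 1 member did when any single array other than normal aorta 4 or 5, or PPE 5 was left out, and Runx2, the osteogenic transcription factor, was at 0.31 ± 0.09 (adjusted p = 0.0682). Of 22 hypoxia and glycolysis genes none was called, with Slc2a1 at 0.66 ± 0.31 (adjusted p = 0.265).

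The rises with the smallest p-values had small standard errors, and several were of endoplasmic reticulum proteins that fold or check secreted proteins. Pdia6, a disulfide isomerase, gave 10.57, 10.10, 10.24, 10.45 and 10.44 in the normal aortas and from 11.12 to 11.67, with a median of 11.35 in PPE, with every aneurysm above every normal aorta, and rose by 1.04 ± 0.12 (adjusted p = 0.000139). The chaperone Hyou1 (0.65), the lectins Os9 (0.58) and Mlec (0.83), and Arl6ip1 (1.36), which shapes the reticulum, were among the same 6 genes, the last of them being Ivns1abp (1.04). In a list of 36 such genes written after these values were seen, and therefore given as a description, 7 of 34 members rose (20.6%, against 2.17% of all genes). None fell. The rises included Hspa5 (0.82), the master chaperone BiP, Sdf2l1 (0.83) and Edem1 (1.04), while Xbp1 was at 0.49 ± 0.27 (adjusted p = 0.366) and Ddit3, which is induced by lasting stress of the reticulum, at 0.26 ± 0.09 (adjusted p = 0.122). Over the 21 members with array values, all of which had passed the overall F test, the list mean was 8.93 to 9.24 in the normal aortas. In PPE it was 9.34 to 9.73. Because the members were picked after their values were seen, the separation of the groups follows in part from that choice. Within their groups PPE 5 was at 9.56, normal aorta 4 at 9.04 and normal aorta 5 at 9.05.

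Calls are also given by the kind of cluster. Over all 65663 clusters tested 2.64% fell and 1.42% rose. Of 31677 non-coding clusters 991 fell (3.13%) and 100 rose (0.316%), and of these 903 and 85 had no gene symbol. Their share of falls was thus near that of all clusters, and their share of rises was low. Of 11253 coding clusters 193 fell (1.72%) and 277 rose (2.46%). Of 15312 clusters that the array labels as multiple complex 486 fell (3.17%) and 436 rose (2.85%). Pseudogene clusters rose in 95 (3.46%) and fell in 17 (0.620%) cases of 2742. Precursor microRNA clusters rose in 3 (0.186%) and fell in 26 (1.61%) of 1612. The surplus of falls over all clusters lay in non-coding clusters without a symbol, and among named genes rises and falls were almost equally frequent.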

How the data were processed

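RNA of abdominal aortas was measured on Affymetrix mouse transcriptome arrays, 1 array per sample. Per the methods, the authors summarised probes to transcript clusters with SST-RMA, a signal space transformation followed by robust multi-array averaging, and the deposited signal table gives log2 values for the 11121 clusters that passed their overall F test. A second deposited table gives the group averages and standard deviations on the same log2 scale for all 65956 clusters, and these stood in where array values were not given. The averages were copied from the authors' columns and need not be plain means. The authors' columns of fold changes, p-values and false discovery rates hold their own comparison and were not used. Gene symbols and positions (mm10) came from the same table. The submitters' processing notes name RMA, mm10 and Transcriptome Analysis Console 4.0.1.36.

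Clusters at the ceiling of 19.93 in all 3 groups were left out. Means and spreads of the 3 groups were fitted together, so that the 7 lenvatinib arrays contributed to the residual spread, and PPE was compared with normal aorta by limma 3.58.1 in R 4.3.3 (moderated test, Benjamini-Hochberg adjustment over 65663 clusters, threshold 0.05). A gene was read from the brightest of its clusters. Figures and promoter searches used Python 3.11.15. The script was tested on simulated data. Array precision is limited by the number of arrays.

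Named genes were the 15 largest rises and falls and the 6 smallest p-values in each direction among genes with array values, without predicted and immunoglobulin chain genes, followed by up to 6 members of each of 50 gene lists chosen by call and size, and cell type markers. Genes of the lists named outside this rule, such as members that were not called, were chosen after their values were seen, and some genes that the rule names are not reported here. Members and lists were chosen with earlier results of these data known, and 1 list, of the endoplasmic reticulum, was added after the values were seen. Of 1070 listed symbols 1033 were matched. Alternatives were another set of arrays, 3 scalings or weightings of arrays, filters on dim clusters, symbols, fold and p, other variance priors, averages only, a replicate block, and each array left out.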

Additional observations from a re-analysis of the deposited data

Results flagged for a closer look

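In 17 of 558 groups of arrays examined (3.05%) 1 array stood apart from the others of its group by Dixon's gap criterion, which chance alone meets in about 1 in 20 groups. PPE 5 was the array apart for 5 genes. It was high for Fmo1 (14.11, against 10.34 to 11.46 in the other aneurysms), Ntrk3 (8.73, against 7.75 to 8.08) and Adra1a (4.34, against 3.67 to 3.90), and low for Il7r (7.54, against 8.88 to 9.39) and Lyz2 (18.62, against 18.97 to 19.07). Among these 5 genes, 3 that were lower or had lower values in PPE were nearer to normal in PPE 5, and so were 2 leukocyte genes that rose. Arrays apart were no more frequent than chance alone gives, so no pattern of this aneurysm is drawn from them.

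Normal aorta 5 was apart through low values of Dusp1 (10.31, against 11.43 to 11.72 in the other normal aortas), of the mean of the mast cell list (6.60, against 7.17 to 7.39) and of the mean of the drug metabolism list (8.21, against 8.76 to 8.98). Normal aorta 3 was low for Edem1 (7.91, against 8.32 to 8.34) and for the mean of the list of endothelial activation and angiogenesis (6.16, against 6.51 to 6.58).

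The remaining values apart were of single aneurysms. PPE 3 was high for C2 (10.19, against 8.92 to 9.33) and low for Sgca (5.07, against 5.26 to 5.31). PPE 1 was high for Sytl5 (6.39, against 5.80 to 5.98) and Col4a6 (4.52, against 4.34 to 4.40). PPE 4 was low for Col4a5 (5.52, against 5.69 to 5.75). PPE 6 was low for Tpm2 (8.61, against 9.01 to 9.15) and stood at 19.64 against 19.65 for Ly6a, close to the ceiling.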

How the results depend on the processing

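The numbers of calls depended on the setting, while no named gene that was called changed sign under any of the settings run. A kept sign was often not a kept call. Of 234 genes followed, 98 lost their call with the replicate number as a block. Without normal aorta 3 it was 92, and 82 each without normal aorta 2 or PPE 4. With only the 11 arrays of both groups in the fit 44 genes lost their call and 4 gained one. The count of genes called higher (780) became 1243 with dim clusters left out, 1453 with array weights, and 354 with a change of at least 2-fold asked for; the count called lower (773) became 183 with the 2-fold condition and 281 with the methods' filter of an unadjusted p and a 2-fold change. For clusters, 933 higher calls became 1467 with quantile normalization, 1494 with dim clusters left out, 1800 with array weights and 436 at 2-fold. The 1731 lower calls became 816 when clusters with 1 symbol were adjusted alone, 550 at 2-fold and 682 with the methods' filter. The 15 macrophage rises became 9 with only the 11 arrays of both groups in the fit.

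Leaving out single arrays gave 247 to 1412 genes called higher, 441 to 933 lower, 287 to 1716 clusters higher and 1079 to 1877 lower, and 6 to 19 macrophage rises. The 16 contraction falls ranged from 12 to 19. The lowest of these counts came without normal aorta 3 or PPE 4, that of contraction falls without normal aorta 1 or 2 as well, and the highest without PPE 5 or normal aorta 5.

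Correlations between the deviations of same-numbered arrays ran from -0.57 to 0.42, without a common sign. With 1 correlation per number they cannot exclude a pairing of the samples. Whether arrays of the same number shared a batch or day was not tested. With the number as a block, 294 clusters and 250 genes were called higher, 904 clusters and 339 genes lower, and 6 macrophage genes rose. Contraction falls numbered 11.

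Signs turned for 2 named genes, neither of them called. Cst3, at 0.30 ± 0.09 (adjusted p = 0.0715), was at -0.06 after quantile normalization. Notch3, at 0.03 ± 0.14, was at -0.06 after quantile normalization, from -0.06 to 0.12 when single arrays were left out (below 0 without PPE 2, 3 or 6), and at -0.01 without normal aortas 4 and 5. The cause of these shifts was not tested. Genes without array values had only averages, and clusters near 19.93 can understate differences.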
